A study of Peromyscus maniculatus with 6 samples.

Results

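The MYC, MAX and MXD network is a group of transcription factors that share a basic helix-loop-helix leucine zipper and bind E-box DNA as pairs. MYC proteins pair with MAX and raise transcription of growth genes, while MXD proteins and MNT pair with MAX on the same sites and recruit SIN3 corepressors. MLX is a related partner that pairs with MNT, with some MXD proteins and with the nutrient-sensing factors MondoA and ChREBP. In fibroblasts MYC is an immediate early gene, with a short-lived mRNA and a short-lived protein.

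The 10 listed network genes were matched by symbol to the gene names of the deposited count table, which found 9 of 10 among 24281 genes. Max was not matched by name and is not analysed here. Of the 9 genes, 7 passed the filter on low counts and were tested. Mycn and Mycl did not pass it. The network was taken up with the rise of Myc in these libraries already known, so every value of the treatment contrast given here is a description and no independent support. The calls come from a test over all genes and are printed for what they are.

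The libraries came from ear-punch fibroblasts of 3 deer mice (Peromyscus maniculatus, BW stock, 4 weeks old), BW35770, BW35772 and BW35773. Each animal's cells gave a control library and a library treated for 5 h with tunicamycin, an antibiotic that blocks N-glycosylation and so provokes the unfolded protein response in the endoplasmic reticulum. The label states a tunicamycin concentration of 5 mg per mL, which could not be checked, and no vehicle for the controls is given in the sources used here. Libraries held 37852385 to 49352126 counts on genes. The treatment was visible in all 3 animals in Ddit3, which encodes the stress factor CHOP, with within-animal log2 differences of 3.76, 3.46 and 4.53. In the other treatment checks these differences were 2.31, 2.46 and 2.65 for Atf4 and 1.68, 1.18 and 1.59 for Hspa5. All 11 fibroblast markers found in the table exceeded 1 CPM (counts scaled to library size) in every library. Their summed level was 15500 to 21620 CPM in controls and 15890 to 20780 CPM with tunicamycin. Vim alone gave 8732 to 9763 CPM of the control sum. The sum hides differences between animals, since Thy1 held 751.8, 85.2 and 118 CPM in the controls of BW35770, BW35772 and BW35773. Markers of cartilage cells were also present, at a sum of 1868 to 8343 CPM in controls and 2074 to 8879 CPM with tunicamycin, with the lowest values in animal BW35770. Col2a1 among them held 742.6, 5999 and 4538 CPM in the controls, in the same order of animals. Melanocyte, endothelial and keratinocyte sums stayed at or below 23.0 CPM, and those of muscle and adipocyte markers at or below 23.5 and 50.6 CPM. Cd68 and S100b, listed for macrophages and Schwann cells, reached 175.2 and 125.8 CPM, but Ptprc and Sox10, which define those cells, stayed at or below 0.0250 and 0.118 CPM. No marker of any list was called in the test below, and with the animal as a block 1 keratinocyte and 1 Schwann cell marker were lower.

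After 5 h of tunicamycin Myc rose about 4.5-fold and Mxi1, an MXD family repressor, fell to about 0.67 of its control level. The other 5 tested members were not called, although Mxd1 lay close to the threshold with a fold of 1.61. These calls are from edgeR's quasi-likelihood test with Benjamini-Hochberg adjustment over 13503 genes and a threshold of 0.05. That test left aside which control and treated libraries came from the same animal. Its calls make 1 of 7 tested members higher and 1 lower, where 1.78% of all tested genes were called higher and 0.792% lower. Once the pairs of libraries entered the edgeR test, Mxd1 was called higher too (adjusted p = 0.0435). The members then numbered 2 higher and 1 lower, against 3.07% and 2.40% of all tested genes. DESeq2 called 2 members higher and 1 lower, against 5.67% and 3.36% of the genes it tested, and limma-voom 1 and 1, against 1.61% and 0.770%. The median log2 fold change of the 7 members was 0.11, against -0.01 for all tested genes. In bulk samples such as these, fewer cells that express a gene and less RNA per cell cannot be told apart.

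**Figure D1:**
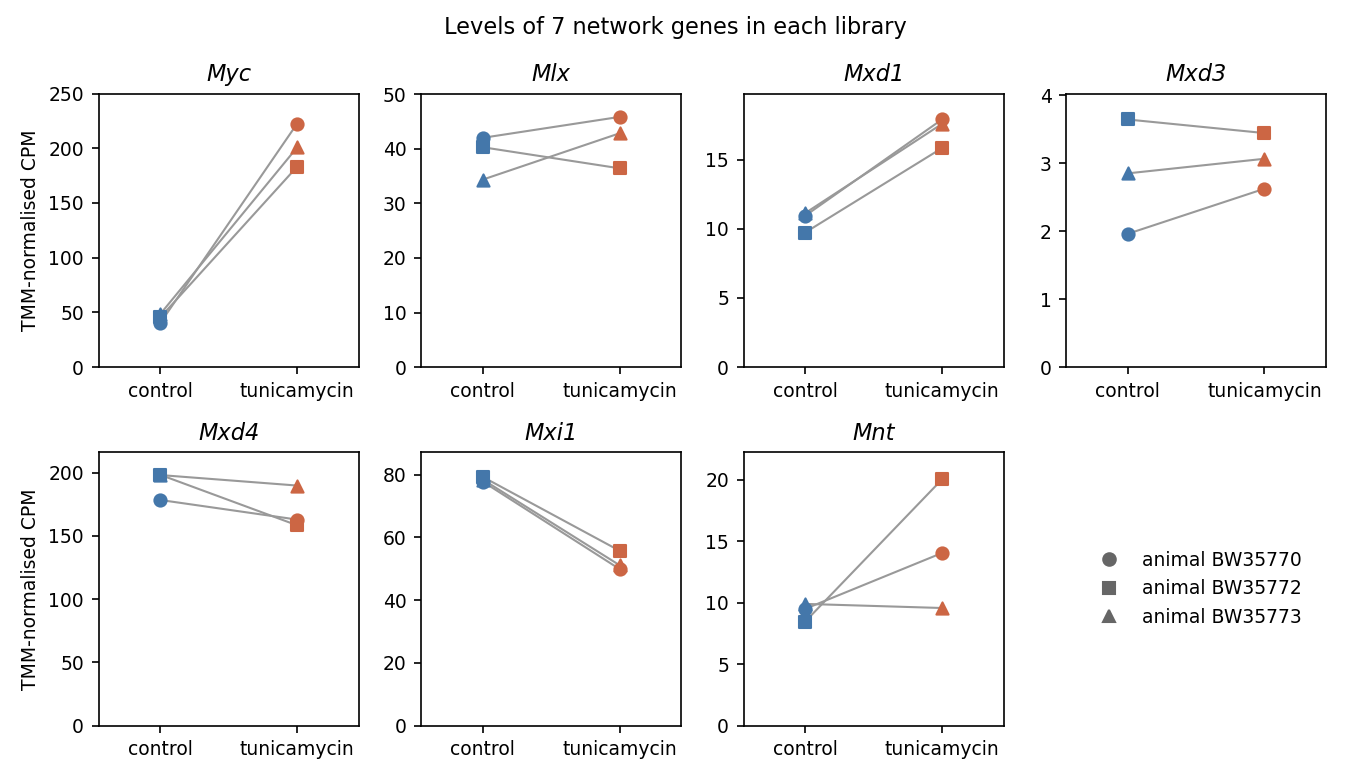
TMM-normalised CPM (vertical axis, linear, from 0) of the 7 tested network genes in control (blue) and tunicamycin (orange) libraries. Each marker shape is 1 animal and grey lines join the libraries of 1 animal. Myc went from 40.3 to 48.5 CPM in controls to 183.1 to 222.4 CPM with treatment, Mxi1 went down in all 3 animals, and the Mnt lines spread apart.

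Myc encodes the MYC protein itself (ENSPEMG00000018619, scaffold KI615711.1, bases 1796306 to 1801335, plus strand, 4 annotated exons). Control libraries of animals BW35770, BW35772 and BW35773 held 40.3, 45.4 and 48.5 CPM, and the matching tunicamycin libraries held 222.4, 183.1 and 200.7 CPM. Each treated library lay far above each control, and the animal with the lowest control had the highest treated value. The log2 differences within the animals were 2.46, 2.01 and 2.05. The log2 fold change was 2.18 ± 0.13 (SE, n = 3 animals, edgeR adjusted p = 0.000488), and the gene ranked 8 of 13503 by p-value. It was called under each of the 17 alternatives tried, with log2 fold changes between 2.03 and 2.27. Ranked by level per exon length, Myc lay above 60.7% of tested genes in controls and above 89.1% with tunicamycin.

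The unnamed gene nearest to Myc on the left side held 0 to 6 counts per library and was not tested. On the other side PVT1_1, an annotated piece of the noncoding PVT1 locus, begins 57391 bases beyond Myc on the same strand. It held 19 to 82 counts per library, at 0.68 ± 0.14 CPM in controls and 1.39 ± 0.17 CPM with tunicamycin (SD, n = 3). Its log2 fold change of 1.03 ± 0.36 was not called (edgeR adjusted p = 0.211). Of 14 tested genes that adjoin or overlap the 9 members, 1 was called, where 2.58% of all tested genes were called either way. This was Retreg3, an ER-phagy receptor gene 6778 bases from Mlx, which fell by 1.35 on the log2 scale (edgeR adjusted p = 0.0123).

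The paralogues Mycn and Mycl, which serve mainly the developing nervous system and other embryonic or epithelial tissues, were at the floor of detection. Mycn had 0 counts in 4 libraries, 2 in the control of BW35773 and 4 in the treated library of BW35772. Mycl had 15 and 12 counts in the control and treated libraries of BW35770 and 0 to 4 in each of the others. A count of 0 allows up to 3 counts, or 0.0574 to 0.0822 CPM in these libraries, by counting error alone. No difference with treatment was detectable for either gene at this depth. Without the filter on low counts the edgeR adjusted p was 0.93 for Mycn and 0.998 for Mycl.

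Mxi1 encodes an MXD family repressor that competes with MYC for MAX (ENSPEMG00000021100, scaffold KI615905.1, bases 2089833 to 2158781, plus strand, 7 annotated exons). Its controls were nearly equal at 77.8, 79.3 and 78.5 CPM, and tunicamycin libraries of the same animals held 49.9, 55.8 and 51.2 CPM. The groups did not overlap, and the within-animal log2 differences were -0.64, -0.51 and -0.62. The log2 fold change was -0.59 ± 0.10 (SE, n = 3 animals, edgeR adjusted p = 0.0335). Removing 1 control, that of BW35770, BW35772 or BW35773, ended the call (edgeR adjusted p = 0.127, 0.226 and 0.179), as did removing the treated library of BW35770 (0.134) and, when animals were blocked, without animal BW35770 (0.399). An unnamed gene on the opposite strand overlaps Mxi1 and held 0 to 12 counts per library.

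Mxd1, which encodes the founding MXD repressor MAD1 and is known for its induction as cells stop dividing, moved the other way (ENSPEMG00000011539, scaffold KI615550.1, bases 1260847 to 1283492, plus strand). Controls held 10.9, 9.73 and 11.1 CPM and tunicamycin libraries 17.9, 15.8 and 17.6 CPM, in the same order of animals. The groups did not overlap and the within-animal log2 differences, 0.71, 0.70 and 0.66, were close to each other. The log2 fold change of 0.69 ± 0.15 was not called (SE, n = 3 animals, edgeR adjusted p = 0.0658). With the animal as a block it was called (edgeR adjusted p = 0.0435), as it was in DESeq2 (0.000338) but not in limma-voom (0.0692). The blocked call was lost without animal BW35770 (edgeR adjusted p = 0.45), and without the block Mxd1 was called in 0 of the 6 fits that left out a library (edgeR adjusted p = 0.0677 to 0.266). With the block the tally of members was thus 2 higher and 1 lower, where 3.07% and 2.40% of tested genes were called. Myc and Mxd1 were the members whose treated libraries all lay above all controls, and Mxi1 the member with the reverse. Such separation was found upward in 12.3% of tested genes and downward in 9.98%.

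**Figure D2:**
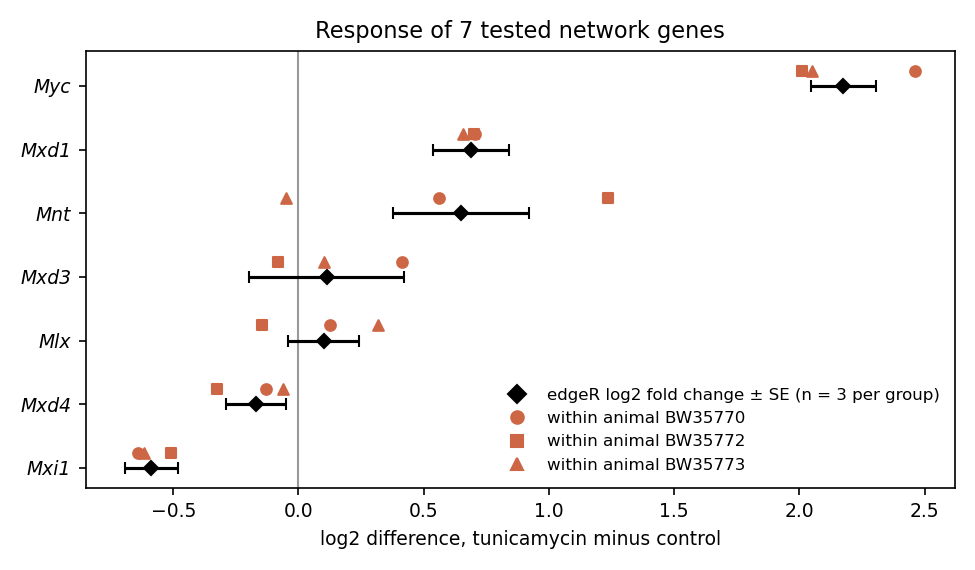
Log2 difference between tunicamycin and control (horizontal axis) for the 7 tested network genes. Black diamonds are edgeR log2 fold changes with bars of 1 SE (n = 3 libraries per group) and orange markers are the differences within each animal, with shapes as labelled. Mxd1 differences lie between 0.66 and 0.71, whereas those of Mnt run from -0.05 to 1.24.

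Mnt encodes a broadly expressed MAX partner that restrains MYC-driven transcription (ENSPEMG00000021123, scaffold KI615405.1, bases 819847 to 832537, plus strand). Controls of BW35770, BW35772 and BW35773 held 9.50, 8.47 and 9.91 CPM, close together, and treated libraries held 14.1, 20.0 and 9.57 CPM. The treated libraries were far apart and that of BW35773 lay within the control range. The log2 fold change was 0.65 ± 0.27 (SE, n = 3 animals, edgeR adjusted p = 0.31). It was 0.36 without the treated library of BW35772 and 0.90 without that of BW35773, and in the blocked fit without animal BW35773 it passed at 0.93 (edgeR adjusted p = 0.0351). The related factors Mga, a large MAX partner, and Mlxip, which encodes MondoA, were picked out after their values were seen. Within-animal log2 differences in BW35770, BW35772 and BW35773 were 0.46, 1.25 and -0.36 for Mga and -0.27, 1.26 and 0.02 for Mlxip, against 0.56, 1.24 and -0.05 for Mnt. All 3 genes thus had their highest difference in BW35772. This was not particular to them, since Cdc25a, Zfp36l2 and Igf2bp2 of the lists below also had their highest difference in BW35772. That animal's treated library also stood apart in its relation to exon length, with a median log2 deviation of -0.30 in the quartile of tested genes with the shortest exon length and 0.16 in the longest quartile. The treated library of BW35773 deviated by 0.20 and -0.13. With this trend removed the log2 fold change of Mnt was 0.65 ± 0.28 (SE), and it was not called (edgeR adjusted p = 0.283).

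Mxd4, the most abundant member in controls per exon length, encodes another SIN3-recruiting repressor (ENSPEMG00000015018, scaffold KI615344.1, bases 66757 to 80788, plus strand). Controls held 178.4, 198.3 and 198.1 CPM and treated libraries 162.9, 158.4 and 189.8 CPM. The ranges overlapped, each animal was lower with treatment, and the estimate of -0.17 ± 0.12 on the log2 scale was not called (SE, n = 3 animals, edgeR adjusted p = 0.586). Mxd3, a repressor known from dividing progenitor cells, was among the least abundant tested members, with 83 to 180 counts per library (ENSPEMG00000011954, scaffold KI615398.1, bases 3102019 to 3105824, plus strand). It lay at 1.96, 3.65 and 2.85 CPM in controls and 2.63, 3.45 and 3.07 CPM with tunicamycin, so that the animals kept their order and the groups overlapped. Its log2 fold change of 0.11 ± 0.31 was not called (SE, n = 3 animals, edgeR adjusted p = 0.924).

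Mlx encodes the shared partner of MondoA and ChREBP (ENSPEMG00000015965, scaffold KI615944.1, bases 1218639 to 1223412, plus strand). Controls held 42.0, 40.3 and 34.3 CPM and treated libraries 45.8, 36.4 and 42.8 CPM, with overlapping ranges and no shared direction among the animals. The log2 fold change was 0.10 ± 0.14 (SE, n = 3 animals, edgeR adjusted p = 0.837). Psmc3ip overlaps Mlx on the opposite strand and held 111 to 195 counts per library, against 1372 to 2058 for Mlx.

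Levels of different genes were compared as CPM per 1000 exon bases. In controls the order from high to low was Mxd4 at 46.3 to 51.5, Mxi1 at 29.0 to 29.6, Mlx at 17.1 to 20.9, Myc at 12.5 to 15 and Mnt at 4.76 to 5.57. Mxd3 at 2.06 to 3.83 and Mxd1 at 2.10 to 2.40 followed and overlapped each other, and Mycl and Mycn came last. All neighbours from Mxd4 to Mxd3 in this order were separated in every control library. With tunicamycin Myc came first, at 56.7 to 68.8, above Mxd4 at 41.1 to 49.3. Mlx at 18.2 to 22.8 and Mxi1 at 18.6 to 20.8 then overlapped.

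**Figure D3:**
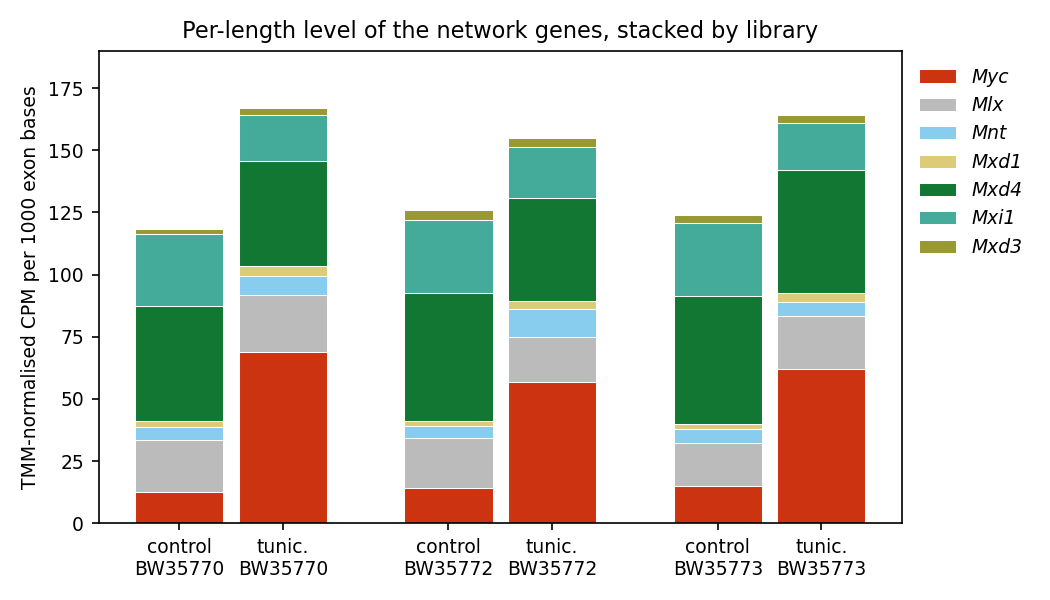
TMM-normalised CPM per 1000 exon bases (vertical axis, from 0) of 7 network genes, stacked for each library and grouped by animal. Mycn and Mycl are not drawn. The Myc block grows from 10.5 to 12.1% of the summed level in controls to 36.5 to 41.2% with tunicamycin, while the Mxd4 and Mxi1 blocks shrink.

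The balance within the network followed from these levels and was not tested. Myc stood at 0.147, 0.153 and 0.164 of the summed per-length level of Mxd1, Mxd3, Mxd4, Mxi1 and Mnt in the controls of BW35770, BW35772 and BW35773. In the treated libraries this ratio was 0.913, 0.706 and 0.769. The repressor sum itself was 89.5 ± 3.82 in controls and 78.8 ± 2.93 with tunicamycin (SD, n = 3, CPM per 1000 exon bases). The change in the ratio was therefore carried mostly by Myc, which went from 13.8 ± 1.28 to 62.5 ± 6.09 on the same scale. These are RNA levels, and protein and dimers were not measured.

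Control libraries alone describe how the members vary between animals, with 1 library per animal and no test. The highest control of Mxi1 was 1.02 times the lowest, and 1.26% of the 1743 tested genes of like level (within 0.5 log2 units) had a smaller ratio. Their median ratio was 1.16. Ratios were 1.11 for Mxd4, 1.14 for Mxd1, 1.17 for Mnt, 1.20 for Myc and 1.22 for Mlx, where medians at like levels ran from 1.15 to 1.28. Mxd3 had a ratio of 1.86, against a median of 1.51 at its low level.

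Likeness was ranked over 8907 other genes that were named, tested and averaged 1 log2 CPM or more. Those whose log2 CPM followed Myc most closely over the 6 libraries were Casp8, which encodes an initiator caspase, Rhbdd1, Trib3, a pseudokinase target of ATF4, Rassf1 and Ccdc97. Pearson's r was 0.997 for Casp8 and at least 0.994 for the others, over libraries that share the treatment contrast. Casp8 rose by 1.85 ± 0.19, Rassf1 by 1.73 ± 0.13, Trib3 by 4.54 ± 0.14 and Ccdc97 by 0.72 ± 0.10 on the log2 scale (SE), and Rhbdd1 at 0.46 ± 0.11 was not called. The closest to Mxi1 were Lpcat1, a phospholipid acyltransferase gene, Oaz2, which encodes an antizyme that restrains ornithine decarboxylase, Lasp1, Ppp1r3c, a glycogen-targeting phosphatase subunit, and Retreg3. Their r ran from 0.991 to 0.997, and all 5 fell, by 0.78 (Oaz2) to 2.02 (Ppp1r3c) on the log2 scale. Because both rankings used the same 6 libraries, a change in the direction of Myc or Mxi1 followed from the selection. Oaz2 lost its call when the exon-length trend was removed (edgeR adjusted p = 0.259). In fits without 1 library or animal, Trib3, Rassf1 and Ppp1r3c were called each time, and Casp8 was not called without animal BW35770 (edgeR adjusted p = 0.068 with the block). Ccdc97, Lpcat1, Oaz2, Lasp1 and Retreg3 each lost the call in at least 1 fit without a single library, that without the control of BW35772 among them (0.113, 0.114, 0.191, 0.0836 and 0.0877).

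Of the 137 tested genes in 7 further lists of MYC partners, regulators and described targets, 4 were called (2.92%), near the 2.58% of all 13503 tested genes. Among 20 tested cofactors and further network genes, 0 were called by edgeR with or without the block, 1 higher by DESeq2 (5.67% of all genes it tested) and 0 by limma-voom, while an unadjusted edgeR p under 0.05 was reached by 1 higher and 2 lower (8.88% and 6.64% of all tested genes). Sin3a, the corepressor scaffold that MXD proteins and MNT recruit, had the smallest p-value of them. Its level was 64.5 ± 1.19 CPM in controls and 81.7 ± 1.79 CPM with tunicamycin (SD, n = 3), and its log2 fold change was 0.34 ± 0.10 (SE, edgeR adjusted p = 0.142, and 0.0156 in DESeq2).

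Among 29 tested regulators of MYC RNA and protein turnover, 1 rose and 0 fell, where 1.78% and 0.792% of all genes did. This was Usp36, a nucleolar deubiquitinase known in human cells to stabilise MYC. It held 16.8, 16.0 and 16.2 CPM in controls of BW35770, BW35772 and BW35773 and 37.8, 57.2 and 34.9 CPM with tunicamycin, with no overlap. The log2 fold change was 1.40 ± 0.20 (SE, n = 3, edgeR adjusted p = 0.0169). The call ended when any 1 control was removed, at adjusted p-values of 0.0721, 0.11 and 0.112 for BW35770, BW35772 and BW35773. Pim2, a kinase that phosphorylates MYC, was not called at 1.13 ± 0.29 on the log2 scale (edgeR adjusted p = 0.109). With the block 2 rose, against 3.07% of all genes, Pim1 being added (edgeR adjusted p = 0.0352).

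**Figure D4:**
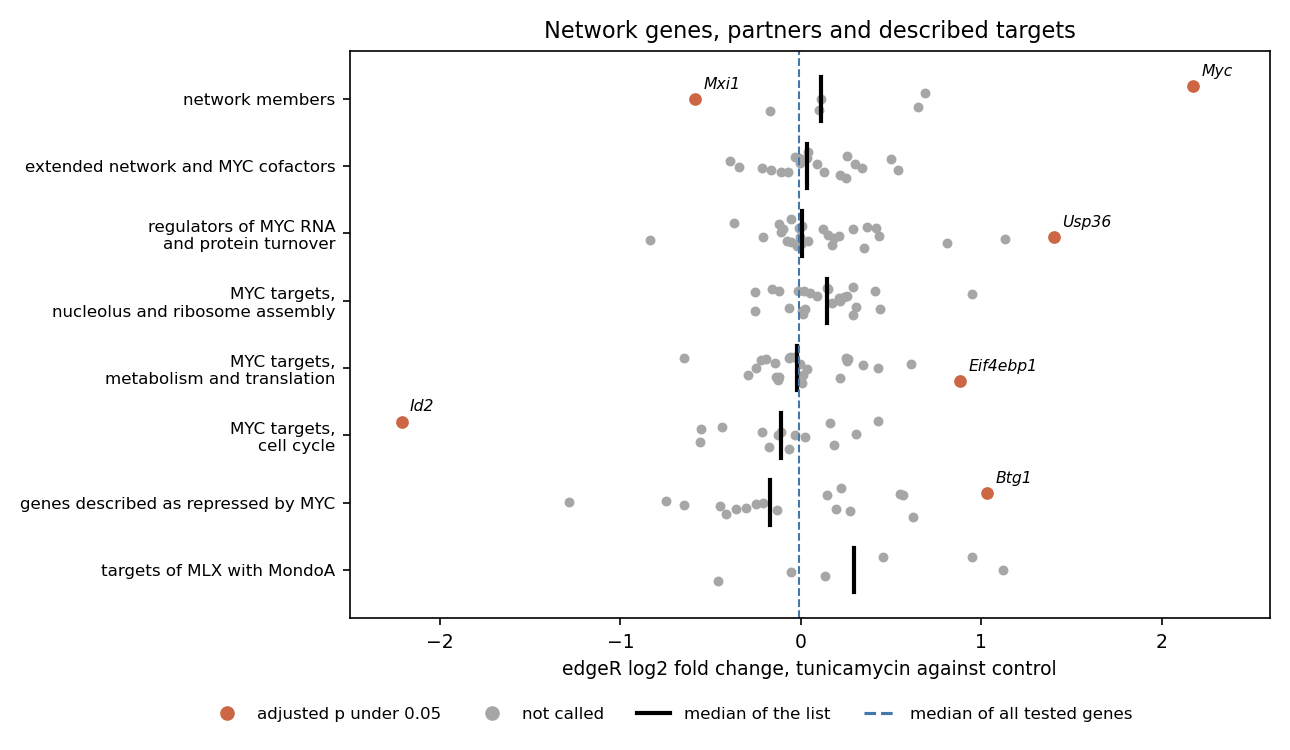
EdgeR log2 fold changes (horizontal axis) of the tested genes in the network and in 7 further gene lists (rows). Each point is 1 gene, orange where the adjusted p was under 0.05, black bars are list medians and the dashed line is the median of all tested genes at -0.01. Myc stands at 2.18, while the nucleolar targets centre on a median of 0.15 with 0 called.

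Of 25 tested genes of the nucleolus and ribosome assembly, a class widely described as MYC targets, 0 were called by edgeR with or without the block and 0 by limma-voom. DESeq2 called 2 higher (5.67% of all genes it tested), and an unadjusted edgeR p under 0.05 was reached by 3 higher and 0 lower (8.88% and 6.64% of all tested genes). Their median log2 fold change was 0.15 and 19 of 25 were above 0, as were 48.5% of all tested genes. Polr1b, a large subunit of RNA polymerase I, came closest, at 13.2 ± 2.01 CPM in controls and 25.4 ± 7.87 CPM with tunicamycin (SD, n = 3). Its log2 fold change was 0.95 ± 0.24 (SE, edgeR adjusted p = 0.107, and 0.0441 without the treated library of BW35773). Of 24 metabolic and translation targets 1 rose and 0 fell, where 1.78% and 0.792% of all genes did, with a median of -0.02. This was Eif4ebp1, a translation repressor also known in mouse cells as an ATF4 target, at 128.3 ± 6.27 CPM in controls and 236.8 ± 47.3 CPM with tunicamycin (SD, n = 3). Its log2 fold change was 0.88 ± 0.16 (SE, edgeR adjusted p = 0.0333). Removal of any 1 control ended the call (adjusted p = 0.133, 0.125 and 0.171 for BW35770, BW35772 and BW35773), and so did removal of the treated library of BW35770 (0.0768). Cad, which starts pyrimidine synthesis, was not called at 0.61 ± 0.18 on the log2 scale (edgeR adjusted p = 0.15) but was called with the block (0.0435), when 2 rose and 1, the prohibitin gene Phb, fell (3.07% and 2.40% of all genes).

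Of 15 tested cell cycle targets 0 rose and 1 fell, where 0.792% of all genes fell, with a median of -0.11. The gene that fell was Id2, an inhibitor of basic helix-loop-helix factors, by 2.21 on the log2 scale (edgeR adjusted p = 0.00883). Cdca7, at -0.55 ± 0.18 on the log2 scale, was not called (edgeR adjusted p = 0.175). Of 18 genes described as repressed by MYC, 1 rose and 0 fell, where 1.78% of all genes rose, with a median of -0.17. Btg1, an antiproliferative gene, rose by 1.03 ± 0.19 on the log2 scale (SE, n = 3, edgeR adjusted p = 0.0365), and lost its call in 5 of the 6 fits without a single library. Cdkn1a, which encodes the cell cycle inhibitor p21, held 1599 ± 167 CPM in the control group and 1020 ± 128 CPM in the treated group (SD, n = 3). Its log2 fold change of -0.65 ± 0.15 (SE) did not pass (edgeR adjusted p = 0.0832). With the block 2 genes of this list rose and 3 fell, against 3.07% and 2.40% of all genes, Cdkn1a, Cdkn2c and Gas1 being the lower ones (edgeR adjusted p = 0.0218, 0.0441 and 0.00621).

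Among 6 targets of MLX with MondoA, 0 were called by edgeR or limma-voom, 1 was called higher by DESeq2 (5.67% of all genes it tested), and an unadjusted edgeR p under 0.05 was reached by 2 higher and 0 lower (8.88% and 6.64% of all tested genes). Txnip, an inhibitor of glucose uptake and of thioredoxin, had control levels of 74.3, 68.3 and 45.6 CPM and treated levels of 159.9, 164.7 and 84.8 CPM in BW35770, BW35772 and BW35773. The groups did not overlap, and the log2 fold change was 1.12 ± 0.29 (SE, n = 3, edgeR adjusted p = 0.106). With the animal as a block it was called (edgeR adjusted p = 0.00416), together with Arrdc4, a related arrestin-domain gene (0.0164), where 3.07% of all genes were called higher.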

How the data were processed

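Per the submitters' processing notes, reads were aligned with STAR 2.6.1, handled with SAMtools 1.6 and counted per gene with featureCounts of Subread. The deposited table holds whole-number counts per gene with exon coordinates and exon length, and its title calls it strand-specific. The sources used here name no genome build and no annotation release. The test was run in R 4.3.3 with edgeR 4.0.16: filterByExpr (minimum count 10, minimum total 15, leaving 13503 genes), TMM scaling and the two-sided quasi-likelihood test of 3 tunicamycin against 3 control libraries. SE is the log2 fold change divided by the square root of F. Within-animal differences use log2 CPM with a prior count of 2. Levels per length are CPM per 1000 exon bases. The fits were tested on data simulated with edgeR's own dispersions and no animal effect. That simulation could not check how the block handles differences between animals.

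Members, gene lists and tests were chosen with earlier results of these data known. Named genes are all members, the treatment checks, the 3 largest called changes and the smallest uncalled p of each list, and the 5 genes most correlated with Myc and with Mxi1 among 8907 candidates (named, tested, mean log2 CPM of at least 1). Others were named after their values were seen.

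Titles name the animal, so same-numbered libraries are pairs. Their deviations from group means correlated at 0.656, 0.408 and 0.217. Libraries of different animals correlated at -0.448 to 0.132. Deviations from a group mean cancel out within the group, so positive values in pairs push the other values down. Part of this gap is therefore built in, and 0.217 for BW35773 was little above 0.132. A fit with the animal as a replicate block was run beside the main one. Alternatives were other scalings, filters, DESeq2 1.42.0, limma-voom (limma 3.58.1) and leaving out libraries or animals. A correction for the trend of each library with exon length was chosen after seeing the data. Within each group no library copied another, since chi-square per degree of freedom was 32.3 to 179.5. Control and treated libraries were not compared in this way. P-values without the block measure the spread between the cultures of 3 animals within each group. With the block they measure how far the treatment differences within the animals disagree.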

Additional observations from a re-analysis of the deposited data

How the results depend on the processing

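Myc kept its direction and its call under all 17 alternatives, and Mxi1 kept its call under 12 of them. The sign of the estimate for Mxd1, Mxd4, Mnt and Mlx also held under all 17, which reuse the same libraries. For Mlx the estimate went as low as 0.018, and the animals did not share a direction for Mlx or Mnt. Mxd3 ran from -0.092 to 0.373, turning negative without the control of BW35770. With the replicate block, members called higher numbered 2. All tested genes called were 415 higher and 324 lower (241 and 107 without it), turnover regulators 2 higher, metabolic targets 2 higher and 1 lower, repressed genes 2 higher and 3 lower, and MLX targets 2 higher. DESeq2 made more false calls than the other tools on data simulated with edgeR's dispersions. It called 2 members, 676 genes, 1 cofactor, 2 turnover regulators, 2 nucleolar targets, 2 metabolic targets, 3 repressed genes and 1 MLX target higher. Lower calls included 401 genes and 3 repressed genes. With the exon-length trend removed 199 genes and 1 repressed gene were lower. The cause of these differences was not tested. With 1 library left out, tested genes called ran from 46 to 313 higher and 15 to 251 lower. With animal BW35770, BW35772 or BW35773 left out and the block, they were 74, 497 and 806 higher and 37, 451 and 826 lower. Over all 9 of these fits members called (7 tested in the main fit) ran from 1 to 3 higher and 0 to 1 lower. List counts then ran from 0 to 1 higher and 0 to 1 lower for cofactors (20 tested in the main fit). Turnover regulators (29) ran from 0 to 5 higher and nucleolar targets (25) from 0 to 3 higher. Metabolic targets (24) ran from 0 to 2 higher and 0 to 2 lower, and cell cycle targets (15) from 0 to 1 higher. Repressed genes (18) ran from 0 to 3 higher and 0 to 4 lower, and MLX targets (6) from 0 to 3 higher and 0 to 1 lower. These counts are to be read beside those of all genes. The fit that called 5 turnover regulators, without animal BW35773, called 806 higher and 826 lower of 13634 tested genes. That fit also reached the highest count of higher calls for the members and for each list. The 4 lower repressed genes came from the blocked fit without animal BW35772, where 451 of 13600 tested genes were lower. A TPM-like scaling multiplied levels per length by 1 factor per library, from 1.48 to 1.90. Such a factor cannot change the order within a library or the Myc ratios, so it was no check of them. Mycn and Mycl, with 6 and 36 counts over all libraries, were below the filter.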
